A study of Mus musculus with 8 samples.

Results

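The visceral endoderm is the absorptive and secretory layer around the early mouse embryo, and the parietal endoderm is the migratory layer beneath the trophoblast. 10 genes known for products of these tissues were examined, namely Afp, Ttr, Apoa1, Apob, Apoe, Cubn, Amn, Dab2, Sparc and Hnf4a. They were chosen by name, and all 10 were among the 18094 genes of the expression table. RNA-seq had been done on E14Tg2A mouse embryonic stem cells (mESCs) and on embryoid bodies (EBs) made from them, in WT cells and in cells in which CRISPR/Cas9 had changed lysine 20 of CTCF, a DNA-binding protein of chromatin architecture, to arginine (CTCF-K20R). Each of the 4 groups, WT mESCs on day 0, CTCF-K20R mESCs on day 0, WT EBs on day 4 and CTCF-K20R EBs on day 4, had 2 libraries. As mESCs both genotypes grew on a feeder layer of mouse embryo fibroblasts treated with mitomycin C, in medium with serum, leukemia inhibitory factor (LIF) and the inhibitors CHIR99021 and PD0325901. Both formed EBs in hanging drops of 1000 cells, in serum without LIF. An EB is an unsorted aggregate, so a lower level in these bulk samples can come from fewer cells of a type or from less RNA per cell, and these cannot be told apart. The number of CTCF-K20R clones behind the libraries is not given in the sources used here.

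The visceral endoderm takes up maternal protein by endocytosis and secretes plasma proteins, much as the liver does later. Cubilin binds protein and vitamin B12 complexes at the cell surface, amnionless carries cubilin to the membrane, megalin (Lrp2) is their large partner receptor, and the adaptor DAB2 links such receptors to clathrin. Parietal endoderm secretes basement membrane, and SPARC is a collagen-binding protein of that matrix. HNF4A is a nuclear receptor on which much of the secretory program of visceral endoderm and liver depends.

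The stretches of DNA just upstream of 5 of the genes are shown, because these are the genes that the results below on Afp, Apoe and the endocytic receptors turn on. Each run is read 5′ to 3′ from RefSeq (GRCm38.p6), starts 250 bases before a RefSeq start site and ends before the first annotated UTR base. Capitals mark letters of the searched motifs, and the runs for Apoe and Dab2 belong to the first of their RefSeq start sites listed.
Afp (chr5:90490464-90490713, plus strand): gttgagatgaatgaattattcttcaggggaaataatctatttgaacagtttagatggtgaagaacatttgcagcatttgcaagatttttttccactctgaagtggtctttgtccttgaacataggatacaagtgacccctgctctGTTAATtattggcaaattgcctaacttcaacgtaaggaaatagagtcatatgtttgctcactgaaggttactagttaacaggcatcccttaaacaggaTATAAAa
Apoe (chr7:19699189-19699438, minus strand): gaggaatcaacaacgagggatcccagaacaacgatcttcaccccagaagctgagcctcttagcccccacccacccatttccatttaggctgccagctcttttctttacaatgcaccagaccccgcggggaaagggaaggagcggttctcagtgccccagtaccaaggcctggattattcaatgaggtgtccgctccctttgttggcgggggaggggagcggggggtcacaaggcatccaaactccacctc
Cubn (chr2:13491877-13492126, minus strand): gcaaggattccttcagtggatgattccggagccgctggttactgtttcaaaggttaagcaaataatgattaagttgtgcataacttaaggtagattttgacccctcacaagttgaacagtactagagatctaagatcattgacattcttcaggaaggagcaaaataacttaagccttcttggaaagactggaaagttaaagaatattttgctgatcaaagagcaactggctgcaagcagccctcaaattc
Amn (chr12:111270846-111271094, plus strand): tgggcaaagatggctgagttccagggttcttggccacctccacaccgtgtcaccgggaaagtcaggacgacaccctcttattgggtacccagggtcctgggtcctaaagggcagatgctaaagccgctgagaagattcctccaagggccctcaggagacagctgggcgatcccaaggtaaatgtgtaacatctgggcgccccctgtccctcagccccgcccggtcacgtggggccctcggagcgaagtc
Dab2 (chr15:6299539-6299787, plus strand): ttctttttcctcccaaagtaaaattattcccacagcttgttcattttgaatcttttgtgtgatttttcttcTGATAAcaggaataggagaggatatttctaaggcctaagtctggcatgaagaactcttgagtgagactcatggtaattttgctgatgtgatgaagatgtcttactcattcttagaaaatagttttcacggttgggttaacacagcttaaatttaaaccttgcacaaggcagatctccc

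The windows were searched on both strands for 5 motifs, namely CAAAGTCCA, a site of HNF4, GTTAAT, a partial site of HNF1, TGATAA, a site of GATA factors, AGATAA, another GATA site, and TATAAA, the TATA box. Afp held GTTAAT and the TATA box. The window of Dab2 held TGATAA, and those shown for Apoe, Cubn and Amn held none of the 5. At further RefSeq start sites of these genes, the second window of Apoe held TATAAA on both strands, and the third window of Apoe and the second of Dab2 held GTTAAT on 1 strand. Of the 32851 windows of 250 bases searched, 6.43% held GTTAAT, 12.4% the TATA box, 7.94% TGATAA, 9.99% AGATAA and 0.384% the HNF4 letters. Windows on chromosome 18, and so Ttr, were not searched, and no other of the 10 genes held the HNF4 letters. These matches describe letters in short windows and were not tested as sites.

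Values are normalized counts per gene and library, and 1 read was worth between 0.812 and 1.141 of them. The limit of detection was set at 3 reads, or between 2.436 and 3.423 normalized counts. The libraries of each WT pair were closer to each other than the sampling of reads allows for, at 0.314 and 0.277 of the squared difference that independent reads would give, against 4.01 and 4.37 in the CTCF-K20R pairs. Each WT pair was therefore counted as 1 sample, so 6 samples entered the test, and the change of WT cells between the days has no replicate check. The methods of the study call the libraries of a group biological replicates, from independent experiments. The labels name no separate cultures, and the p-values measure the spread between these libraries, which may be technical. Ctcf itself had a log2 fold change of 0.19 (SE 0.048) in CTCF-K20R on both days (adjusted p = 0.055 on day 0 and 0.0268 on day 4, limma), which does not check a point mutation. A gene was called when its absolute log2 fold change, on the log2(value + 1) scale, was above 1 and its adjusted p was under 0.05. Tested were the 15767 genes that averaged 10 normalized counts or more, as 7 of the 10 genes did, while Afp, Ttr and Apoa1 did not. Cubn reached this mean only through CTCF-K20R EBs.

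**Figure D1:**
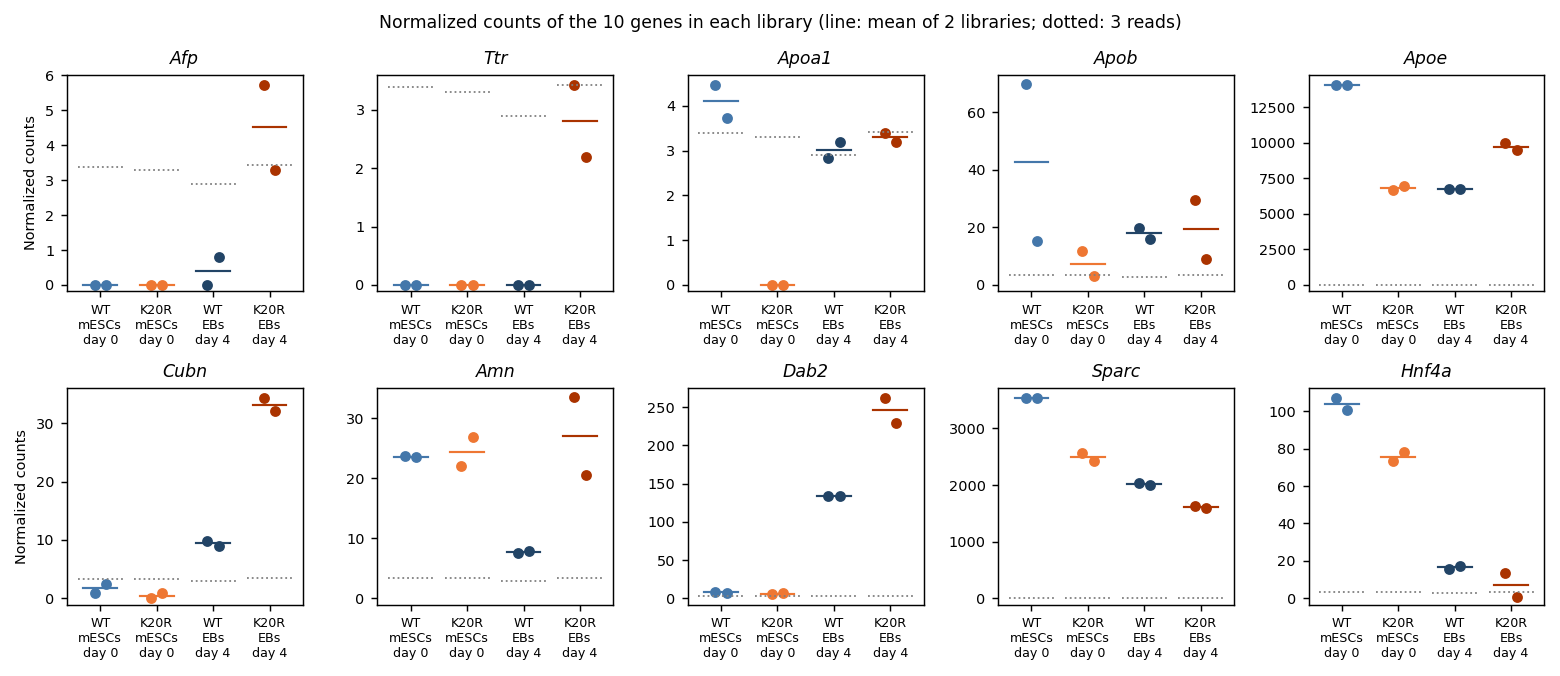
Normalized counts (vertical axes, linear, a separate scale for each gene) of the 10 genes in the 2 libraries of each group, with the group mean as a line and 3 reads as a dotted line. Apoe and Sparc stood at 1595 normalized counts or more, whereas Afp, Ttr and Apoa1 stood at 5.74 normalized counts or less in every library.

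The products that define visceral endoderm most sharply were at or near the limit of detection. Afp, alpha-fetoprotein, the main fetal plasma carrier, was at 0 in all 4 mESC libraries, at 0 and 0.812 in WT EBs, and at 5.74 and 3.3 normalized counts in CTCF-K20R EBs. Only the CTCF-K20R EB libraries reached 3 reads of Afp. These were 8 reads in all, against 1 in WT EBs, a ratio of 10.1 with a 95% exact interval of 1.36 to 449 that covers counting error only. The interval takes the reads of the 2 WT EB libraries as independent, which the closeness of that pair goes against, so it is not a test of genotype. Ttr, transthyretin, the carrier of thyroid hormone and retinol-binding protein, was at 0 in 6 libraries and at 3.43 and 2.18 in CTCF-K20R EBs, which is at or under 3 reads. Alb, which neighbours Afp and encodes albumin, and Apoc3 next to Apoa1 were not analysed here. For Afp the study had designed RT-qPCR primers, gctcagcgaggagaaatgg and cttcaccaggttaatgagaagc, which match bases 1421 to 1706 of a 2063-base GENCODE transcript. By RT-qPCR the study reported little effect of CTCF-K20R on the endoderm markers Afp and Sox17. Those measurements were in mESCs and in EBs of a later day than day 4, so they are not set against the values here. Those primers lie in the gene at chr5:90490737-90508907 (GRCm38), which also overlaps Gm43449 on the opposite strand. Use of strand in the counting is not given in the sources used here, and overlap was judged by the span of the genes, not of their exons. Whether any of the few reads of Afp came from the antisense gene was not tested.

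Some other genes listed here for visceral endoderm were abundant in WT EBs, so the low level of Afp and Ttr was not shared by all of them. The transcription factors Sox17, Gata6 and Foxa2 stood at 1881 and 1912, at 1207 and 1205, and at 2242 and 2244 normalized counts in WT EBs. In CTCF-K20R EBs they stood at 15.5 and 7.8, at 4.69 and 10.7, and at 74 and 73.3. By their genes the 10 products therefore went against their label in part, since the most abundant of them were already high in mESCs and the most specific of them were nearly absent in EBs.

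The levels of the 10 genes spanned a wide range. Per kilobase of exon, Apoe was the highest in every group (6589 normalized counts per kb in WT mESCs, 3205 in CTCF-K20R mESCs, 3166 in WT EBs and 4552 in CTCF-K20R EBs). Sparc came next in every group, between 426 and 935 normalized counts per kb. Hnf4a came after these in mESCs of both genotypes (21.5 and 15.7 per kb), and Dab2 did so in EBs (18.2 in WT and 33.5 in CTCF-K20R). In CTCF-K20R EBs the 6 lowest genes, Apoa1, Ttr, Cubn, Hnf4a, Apob and Afp, lay between 1.34 and 2.67 per kb, and the libraries of Hnf4a, Apob and Afp differed by more than the steps between these genes.

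Among the apolipoproteins, Apoe showed a genotype difference of opposite sign on the 2 days, whereas Apob was not called on either day. Apoe encodes apolipoprotein E, a lipoprotein ligand of the LDL receptor family, and lies at chr7:19696109-19699188 on the minus strand (GRCm38). Its values were 14077 and 14097 in WT mESCs, 6713 and 6993 in CTCF-K20R mESCs, 6767 and 6770 in WT EBs, and 9999 and 9465 in CTCF-K20R EBs. Every CTCF-K20R library was below WT on day 0 and above WT on day 4. On day 0 the log2 fold change was -1.04 (SE 0.048, adjusted p = 0.000958, limma), and Apoe was the only one of the 7 genes called, lower, where 2.6% of all genes were called lower and 1.19% higher. With quantile normalization the all-gene counts on day 0 were 235 higher and 326 lower, in place of 188 and 410. The day 0 call of Apoe was lost without CTCF-K20R EBs replicate 1 (adjusted p = 0.0589) or replicate 2 (0.0588), with the same fold change. On day 4 Apoe was 1.44-fold higher in CTCF-K20R (log2 fold change 0.52, SE 0.048, adjusted p = 0.000879), which is under the fold that a call required. The difference between the genotype effects was 1.56 on the log2 scale (SE 0.068, adjusted p = 0.00021), and Apoe was the only one of the 7 called, higher, against 6.84% of all genes. In CTCF-K20R the level rose by 0.51 on the log2 scale from mESCs to EBs (SE 0.039, adjusted p = 0.000211), and in WT it was 2.08-fold lower in EBs.

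Apob encodes the structural protein of the large lipoproteins. Its values were 69.8 and 15.4 in WT mESCs, 11.7 and 2.98 in CTCF-K20R mESCs, 19.9 and 16.1 in WT EBs, and 29.6 and 9.03 in CTCF-K20R EBs. The libraries of a group were far apart in 3 of the 4 groups, CTCF-K20R mESCs lay below both WT groups, and every other pair of groups overlapped. The WT mESC libraries differed by 2.11 on the log2 scale, and only 6 of the 15767 genes differed more between these 2 libraries. The log2 fold change was -2.62 on day 0 (95% interval -5 to -0.24, adjusted p = 0.13, limma) and -0.12 on day 4 (95% interval -2.5 to 2.27, adjusted p = 0.935). The day 0 value moved between -3.45 (without CTCF-K20R mESCs replicate 1) and -1.21 (without WT mESCs replicate 1), with an adjusted p between 0.0089 and 0.447 over 17 alternatives, and was a call in 2 of them. The day 4 value changed sign without WT EBs replicate 1 (0.04), without CTCF-K20R EBs replicate 2 (0.69) and with quantile normalization (0.05). Apoa1, the main protein of high-density lipoprotein, was at 4.47 and 3.74 in WT mESCs, at 0 in both CTCF-K20R mESC libraries, at 2.84 and 3.2 in WT EBs, and at 3.4 and 3.2 in CTCF-K20R EBs. These are at most 4 reads, so no fold is given.

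**Figure D2:**
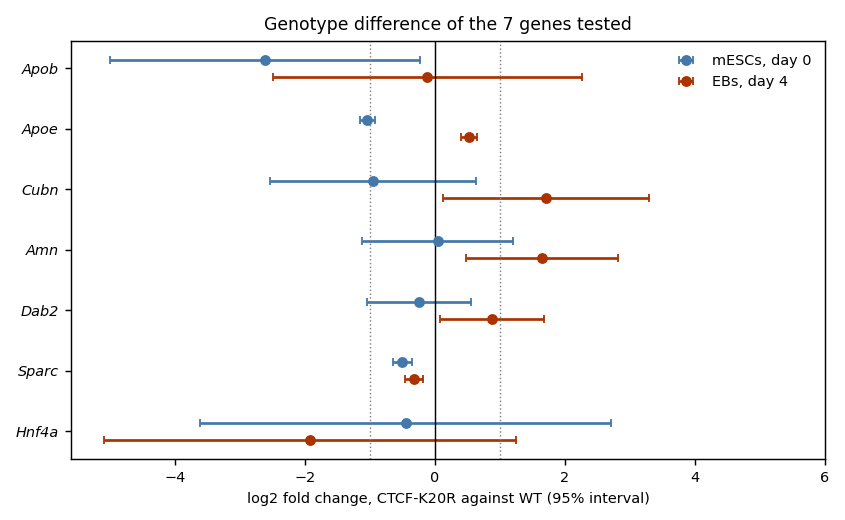
Log2 fold change of CTCF-K20R against WT (horizontal axis) with its 95% interval for the 7 genes tested, in mESCs on day 0 (blue) and EBs on day 4 (red), with dotted lines at the fold needed for a call. Apoe lies at -1.04 and 0.52, the intervals of Apob and Hnf4a are the widest, and Amn and Dab2 lie above 0 on day 4. Cubn is drawn, but its interval is not a test, because it entered the genes tested only through CTCF-K20R EBs.

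The 3 endocytic genes were higher in CTCF-K20R than in WT EBs in both libraries, by 3.52-fold for Cubn, 3.5-fold for Amn and 1.84-fold for Dab2, and of these Amn passed the call. Cubn was at 0.968 and 2.43 in WT mESCs, at 0 and 0.938 in CTCF-K20R mESCs, at 9.84 and 9 in WT EBs, and at 34.3 and 32 in CTCF-K20R EBs. It was under 3 reads in all mESC libraries, and the CTCF-K20R EBs stood apart from the WT EBs. The log2 fold change on day 4 was 1.71. In CTCF-K20R the level in EBs was at least 10.1-fold higher than in mESCs when mESCs are set at 3 reads per library. No test is given for Cubn, because CTCF-K20R EBs are the group through which it entered the genes tested. Cubn lies at chr2:13276338-13491813 on the minus strand and overlaps Gm13270 on the opposite strand. Overlap was judged by the span of the genes and not of their exons, so whether they share reads was not tested.

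Amn was at 23.7 and 23.5 in WT mESCs, at 22 and 26.8 in CTCF-K20R mESCs, at 7.5 and 7.93 in WT EBs, and at 33.5 and 20.5 in CTCF-K20R EBs. WT EBs were low, 3.06-fold below WT mESCs, and the 3 other groups overlapped. On day 4 its log2 fold change was 1.64 (SE 0.47, adjusted p = 0.0383, limma), and it was the only one of the 7 genes called, higher, where 6.89% of all genes were called higher and 8.65% lower. The call of Amn was lost without any 1 of the 4 CTCF-K20R libraries (adjusted p = 0.0643 and 0.0652 without mESC replicates 1 and 2, 0.0971 and 0.0536 without EB replicates 1 and 2). Over all 17 alternatives its log2 fold change on day 4 ranged from 1.3 to 1.99 and its adjusted p from 0.00132 to 0.0971. The call was also lost with only the 2 groups compared, without the filter and with the replicate block, and so held in 10 of the 17. On day 0 the log2 fold change of Amn was 0.04 (95% interval -1.13 to 1.21), and the genotype effects of the 2 days differed by 1.6 (adjusted p = 0.132, limma).

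Dab2 was at 8.29 and 6.92 in WT mESCs, at 6.15 and 6.33 in CTCF-K20R mESCs, at 134 and 134 in WT EBs, and at 262 and 229 in CTCF-K20R EBs. EBs of both genotypes stood far above mESCs, and CTCF-K20R EBs above WT EBs. The change from day 0 to day 4 was 39.4-fold in CTCF-K20R (log2 fold change 5.09, SE 0.26, adjusted p = 4.96e-05, limma) and 17.6-fold in WT. On day 4 the log2 fold change between genotypes was 0.87 (SE 0.32, 95% interval 0.07 to 1.67, adjusted p = 0.0811). Dab2 overlaps Gm16311 and Gm18888 on the opposite strand. Leaving Cubn aside, Dab2 was called higher and Hnf4a lower from day 0 to day 4 in CTCF-K20R, where 14.5% of all genes were called higher and 11.6% lower.

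Megalin, the partner receptor, was the gene of the endocytic list that rose most in CTCF-K20R EBs. Lrp2 was at 280 and 272 in WT mESCs, 253 and 242 in CTCF-K20R mESCs, 273 and 272 in WT EBs, and 2519 and 2816 in CTCF-K20R EBs. Its log2 fold change on day 4 was 3.28 (SE 0.11, adjusted p = 4.47e-05, limma), and the effects of the 2 days differed by 3.44 (adjusted p = 0.000223). Per kilobase of exon in CTCF-K20R EBs, Lrp2 was at 160, Dab2 at 33.5, Amn at 14.7 and Cubn at 2.22 normalized counts. Of the 13 other endocytic receptors and adaptors tested, Lrp2 and the lipoprotein receptor Scarb1 (log2 fold change 1.08) were called higher, the endosomal chloride channel Clcn5 (-1.27) was called lower, and the median of the 13 was -0.04, beside 0.01 over all genes tested, of which 6.89% were called higher and 8.65% lower.

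**Figure D3:**
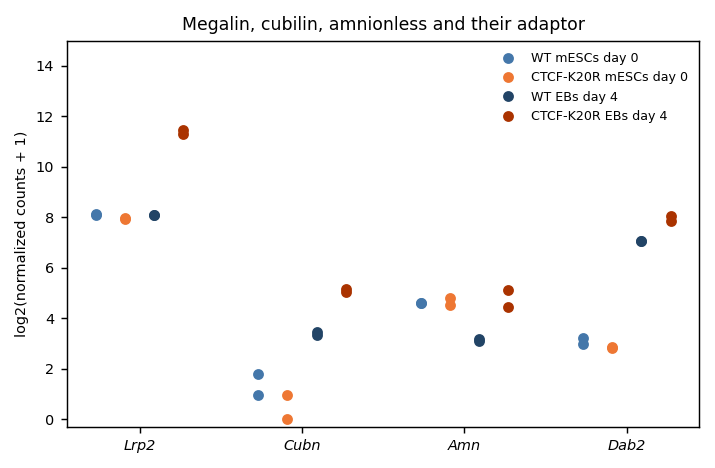
Level, as log2(normalized counts + 1), of Lrp2 (megalin), Cubn (cubilin), Amn (amnionless) and Dab2 in each library (points), colored by group. CTCF-K20R EBs lie above WT EBs for all 4 genes, by 3.28 for Lrp2 and by 0.87 for Dab2, and only Amn in CTCF-K20R EBs overlaps its level in mESCs.

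Sparc was lower in CTCF-K20R than in WT on both days, by less than a call required. It was at 3541 in both WT mESC libraries, at 2566 and 2432 in CTCF-K20R mESCs, at 2040 and 2008 in WT EBs, and at 1635 and 1595 in CTCF-K20R EBs. The 4 groups did not overlap, and the order was the same in both genotypes, with EBs below mESCs. The log2 fold change was -0.5 on day 0 (SE 0.058, adjusted p = 0.00615, limma) and -0.33 on day 4 (SE 0.058, adjusted p = 0.00824), and these effects differed by 0.18 (95% interval -0.03 to 0.38, adjusted p = 0.168). By the adjusted p alone, Sparc, Apoe and Amn passed on day 4, where 40.1% of all genes passed in either direction, and Sparc and Apoe on day 0, where 15.4% did. Without CTCF-K20R EBs replicate 1 or 2 the adjusted p of Sparc was 0.0573 or 0.0659 on day 4 and 0.0743 or 0.0744 on day 0, which do not pass. From day 0 to day 4 Sparc fell by 0.63 on the log2 scale in CTCF-K20R (SE 0.047, adjusted p = 0.000183) and was 1.75-fold lower in WT.

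Hnf4a was higher in mESCs than in EBs in both genotypes. It was at 107 and 101 in WT mESCs, at 73.2 and 78.1 in CTCF-K20R mESCs, at 15.8 and 17.4 in WT EBs, and at 13.5 and 0.486 in CTCF-K20R EBs. The CTCF-K20R EB libraries differed by 3.29 on the log2 scale, and only 21 of the 15767 genes differed more between them. The log2 fold change on day 4 was -1.92 (95% interval -5.09 to 1.24, adjusted p = 0.278, limma), and without CTCF-K20R EBs replicate 1 it was -3.57 (adjusted p = 0.0242), which is a call. From day 0 to day 4 in CTCF-K20R Hnf4a fell by 4.05 on the log2 scale (SE 1.03, adjusted p = 0.0189), a call that was lost without CTCF-K20R mESCs replicate 1 (adjusted p = 0.0857) or replicate 2 (0.0909). In WT it was 6.26-fold lower in EBs. Hnf4a, at chr2:163506808-163572910, overlaps Hnf4aos on the opposite strand and Gm25881 on the same strand by the span of the genes. Whether its reads hold some of theirs was not tested.

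Lists of related genes moved in different directions on day 4. Most tested genes of the 3 endoderm lists that follow were called lower in CTCF-K20R EBs. Which cells of the EBs these genes came from was not tested. Sox17, Gata6, Bmp2, Lhx1 and Cer1, among others, reached the mean for the test only through WT EBs, where they are high, so their calls are not a test. Of 17 other visceral endoderm genes tested, 10 were called lower and 1 higher, against 8.65% and 6.89% of all genes, with a median log2 fold change of -2.48 beside 0.01 over all genes. The 4 with the largest fall were Sox17 (-7.3), Gata6 (-7.21), Bmp2 (-5.33), a signaling ligand, and Foxa2 (-4.91), and the call of Foxa2 was lost without CTCF-K20R EBs replicate 1 or 2, where the adjusted p reached 0.22. The homeobox gene Rhox5 was the 1 that rose, from 20.1 and 23.4 in WT EBs to 200 and 174 (log2 fold change 3.04, adjusted p = 0.000325, limma), and it was also higher in CTCF-K20R mESCs, by 3.68. Of 9 anterior visceral endoderm genes 5 were called lower, led by the transcription factor Lhx1 (-10.98), the secreted antagonists Cer1 (-9.72) and Dkk1 (-6.27), and Hhex (-3.12), and Lefty1 was called higher (1.93). Their median was -1.5. Of 16 parietal endoderm and basement membrane genes 10 were called lower and 0 higher, with a median of -1.8. The 4 largest falls were in Snai1 (-4.22), Krt8 (-2.87), the laminin chain Lama1 (-2.79) and Plat (-2.62). By the adjusted p alone 13 were lower and 3 higher, namely Lamc1 (0.55), Nid2 (0.67) and Hspg2 (0.63). Set beside these medians, Sparc stood at -0.33 and Dab2, at 0.87, was above WT.

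**Figure D4:**
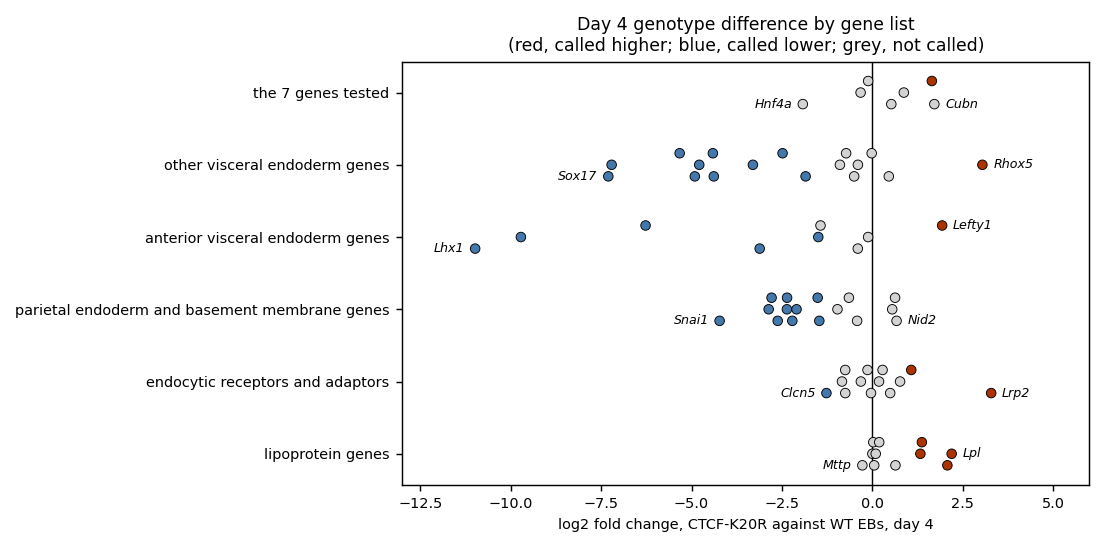
Log2 fold change of CTCF-K20R against WT EBs on day 4 (horizontal axis) for each gene tested (points) of the 7 products and of 5 related gene lists, with the lowest and the highest gene of each list named. Between Hnf4a at -1.92 and Cubn at 1.71, the 7 products lie in a narrower range than the visceral endoderm lists, which reach -7.3 and -10.98.

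Of 11 lipoprotein genes tested, 4 were called higher and 0 lower on day 4, where 6.89% of all genes were called higher and 8.65% lower. The 4 were lipoprotein lipase Lpl (2.19), the sterol exporter Abcg1 (2.07), the phospholipid transfer protein Pltp (1.37) and Apoc1 (1.33), with a median of 0.19. On day 0, 0 of the 11 were called, with a median of -0.32. Apoc1 lies next to Apoe and had values of 219 and 218 in WT mESCs, 154 and 183 in CTCF-K20R mESCs, 24.1 and 26.1 in WT EBs, and 56.9 and 72.9 in CTCF-K20R EBs. Its call on day 4 was lost without CTCF-K20R EBs replicate 1 or 2, with an adjusted p of up to 0.0874. Among the neighbours of Apoe tested on day 4, Bcam was at 0.8 (adjusted p = 0.00594), Tomm40 at 0.42 (adjusted p = 0.00392) and Clptm1 at -0.11 (adjusted p = 0.181, limma). On day 0 the values were -0.38 for Apoc1, 0.37 for Bcam, 0.15 for Tomm40 and 0.29 for Clptm1, and none was called. Near Afp, Rassf6 was called higher on day 4 (1.49, adjusted p = 0.046, limma), a call lost in 5 of 17 alternatives, among them leaving out CTCF-K20R EBs replicate 1 (adjusted p = 0.185) or 2 (0.128). Near Apoa1, Zpr1 was at 0.36 (adjusted p = 0.00548, limma) and Sik3 at 0.05 (adjusted p = 0.641). Within 2.5 Mb of each of the 10 genes the median log2 fold change of the other genes tested lay between -0.09 and 0.21 on day 4 and between -0.16 and 0.02 on day 0.

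**Figure D5:**
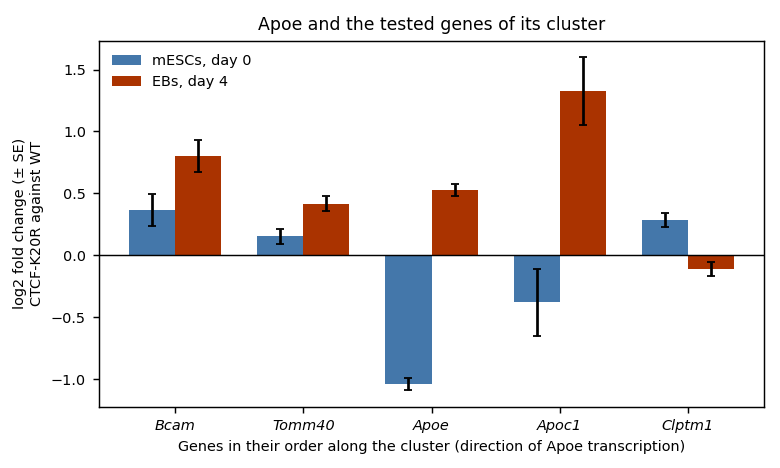
Log2 fold change of CTCF-K20R against WT (vertical axis, bars from 0 with SE) for Apoe and the 4 genes of its cluster that were tested, in their order along the chromosome, on day 0 (blue) and day 4 (red). Apoe has the lowest day 0 value, -1.04, and Apoc1 the highest day 4 value, 1.33.

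Markers of other cells also differed between the groups. The fibroblast list, which covers the feeder cells of the mESC cultures, summed to 1013 to 1045 normalized counts in WT mESCs and 639 to 653 in CTCF-K20R mESCs, 14 of its genes being in the table, and Thy1 made up 459 to 465 and 103 to 104 of these sums. Over the 4 mESC libraries Postn, Dcn and Twist2 were at 0, Col3a1 and Lum at 1.51 or less, and Prrx1, Acta2 and Col6a1 at 1.08 to 6.77, whereas Thy1 was at 103 to 465, Col5a1 at 397 to 435, Col1a1 at 16 to 34.3, Col1a2 at 12.2 to 28.1, Fbn1 at 16.1 to 39.3 and Loxl1 at 22.2 to 61.2. In EBs the fibroblast list summed to 2450 to 2480 in WT and 1375 to 1420 in CTCF-K20R. Of its 11 tested genes 4 were called lower and 2 higher, against 8.65% and 6.89% of all genes. Of those called, Col3a1 reached the mean for the test only through CTCF-K20R EBs, and Postn and Prrx1 only through WT EBs, so their calls are not a test. Pluripotency genes summed to 16192 to 16341 in WT EBs and 32046 to 32710 in CTCF-K20R EBs. Of these genes 5 of 9 were called higher and 2 lower, against 6.89% and 8.65% of all genes. Among the 10 genes, those tested with both WT mESC libraries above WT EBs were Apoe, Amn, Sparc and Hnf4a. In CTCF-K20R EBs Apoe and Amn were higher than in WT EBs, and Sparc and Hnf4a lower (log2 fold changes -0.33 and -1.92). Only Amn was called. Primitive streak and mesoderm genes summed to 43186 to 43345 in WT EBs and 2438 to 2552 in CTCF-K20R EBs, with 9 of 10 called lower. Trophoblast genes had 6 of 10 called lower and 0 higher, where 8.65% of all genes were called lower and 6.89% higher. Hand1, on both of these lists, reached the mean for the test only through WT EBs. The part of these cell types in the differences of the 10 genes was not tested.

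The genes whose pattern over the 8 libraries was nearest to each of the 7 were found from the Euclidean distance of centred log2 values. Nearest to Apoe were Paqr8 (distance 0.17), the sugar phosphate enzyme Pgm2 (0.25) and Gngt2 (0.28), and nearest to Sparc were the lysosomal enzymes Ctsa (0.18) and Gla (0.18) and the dystroglycan gene Dag1 (0.2). Dab2 had Gatm (0.36), Atp10a (0.4) and Cnn1 (0.62), and Amn had Usp17la (0.38), Tmem45a (0.43) and Xrcc4 (0.45). Cubn had H2-Q2 (0.76), Gm16233 (0.85) and 1810041L15Rik (0.87). H2-Q2 and Usp17la belong to families of near-identical copies, so the reads assigned to them are uncertain. Hnf4a had Dmgdh (0.67), Scn3a (1.55) and RP23-44N5.7 (1.59), and Dmgdh was at 34.2 and 3.95 in the CTCF-K20R EB libraries, split the same way as Hnf4a. Apob had Gm19325 (1.69), AI854703 (1.99) and Nfam1 (2.02) at the largest distances of the 7.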

How the data were processed

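Gene expression was measured by RNA-seq in mESCs (day 0) and EBs (day 4) of both genotypes, with 2 libraries per group. The authors trimmed reads with Trim Galore, quantified mm10 transcripts with salmon, summed transcripts per gene by tximport and scaled the counts by DESeq2 over all libraries together. The deposited values are this signal per gene, namely normalized counts, which summed to between 19412659 and 21311513 per library. The annotation release and the use of strand are not given in the sources used here. These values are not whole reads, so limma 3.58.1 in R 4.3.3 was run on log2(value + 1) of the 15767 genes averaging 10 or more, with lmFit, eBayes with a trend, 1 mean per group and Benjamini-Hochberg adjustment over all genes tested (2 residual and 3.51 prior degrees of freedom). Fold changes on this scale understate those of low genes. The fold threshold and the adjusted p threshold followed the study. A ratio of linear means is given as a fold, and where a group was at or under 3 reads per library the fold is a lower bound.

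Libraries were compared within groups before the test, and each WT pair was averaged to 1 sample because its squared differences were below those of independent reads. On simulated data the fit recovered a median of 193 of 200 genes changed on day 4 over 5 draws, with 7 false calls on day 4 and 0 on day 0 among 15767 genes. Positions and exon lengths came from GENCODE vM21 (GRCm38) and upstream windows from RefSeq (GRCm38.p6), read with Python 3.11.15, pandas 2.3.3 and numpy 2.4.6. Exact intervals used scipy 1.17.1 and plots matplotlib 3.10.9. The 10 genes, the 10 gene lists and the tests were chosen with earlier results of these data known. Of each list the text names up to 4 called genes with the largest change, and single genes called in the other direction. For neighbours it names every gene tested and for similarity the 3 nearest genes. Rhox5, Lefty1, Lamc1, Nid2 and Hspg2 were named after their values were seen. Alternatives covered the pseudocount, the filter, the samples, a replicate block, quantile normalization, the call rule and leaving out each library. The same alternatives for the lists were added after seeing the data.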

Additional observations from a re-analysis of the deposited data

Results flagged for a closer look

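Apoe was the 1 result singled out, because its genotype effect differed between the days. The log2 fold change of CTCF-K20R against WT was 1.56 higher on day 4 than on day 0 (SE 0.068, adjusted p = 0.00021, limma), with both CTCF-K20R libraries below WT in mESCs and both above WT in EBs. Under the 16 alternatives run for this difference it stayed between 1.49 and 1.6, and the adjusted p between 6.27e-07 and 0.0287. Groups held 2 libraries, too few to ask whether a single library stands apart.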

How the results depend on the processing

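Of the single-gene values under alternatives, 426 kept their direction and their side of the threshold, 22 passed it where they had not, 12 no longer did and 9 changed sign. On day 4, where 1 of the 7 genes was called, 2 were called with a pseudocount of 5, with all 8 libraries as separate samples and with quantile normalization, 3 by the adjusted p alone and 0 without the filter. The 2 with a pseudocount of 5 and with all 8 libraries include Cubn, as do the counts for CTCF-K20R from day 0 to day 4, although Cubn entered the test only through CTCF-K20R EBs. With only the 2 groups compared, the 1 called on day 4 was Cubn in place of Amn. On day 0, where 1 was called, 2 were called by the adjusted p alone. For the difference between the days, where 1 was called, 4 were called with all 8 libraries as separate samples. From day 0 to day 4 in CTCF-K20R, where 3 were called, 5 were called by the adjusted p alone. Leaving out each library in turn gave 0 to 1 on day 4, 0 to 1 on day 0, 1 for the difference and 2 to 3 for CTCF-K20R.

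Replicate numbers did not pair the samples, since the deviations of same-numbered libraries correlated between -0.04 and 0.001. With the replicate block 0 genes were called on day 4 (Amn, adjusted p = 0.054) and 2 on day 0 (Apoe, and Apob with an adjusted p of 0.0288), and with the block and all 8 libraries as separate samples 2 were called on day 4, 2 on day 0 and 5 for the difference.

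Signs changed for values that were not called. With quantile normalization Apob on day 4 was 0.054, Dab2 on day 0 was 0.092 and the change of Amn in CTCF-K20R was -0.061. Leaving out 1 library at a time gave -0.92 to 0.69 for Apob on day 4 (above 0 without WT EBs replicate 1, at 0.035, and without CTCF-K20R EBs replicate 2), -0.097 to 0.18 for Amn on day 0 (below 0 without CTCF-K20R mESCs replicate 2), -0.23 to 0.45 for the change of Amn in CTCF-K20R (-0.029 without mESC replicate 1, lowest without EB replicate 1), and -3.11 to 0.17 for the difference between the days of Hnf4a (above 0 without CTCF-K20R EBs replicate 2). The cause was not tested. Without the filter Afp (1.94, adjusted p = 0.0293) and Ttr (1.91, adjusted p = 0.02) passed on day 4 and Apoa1 (-2.35, adjusted p = 0.0283) on day 0, on at most 5 reads a library.

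Over all genes, 598 were called on day 0, against 1348 with all 8 libraries as separate samples, 1344 with the block and all 8, 146 with only the 2 groups compared and 2429 by the adjusted p alone. Leaving out libraries gave 0 to 615 on day 0 and 1590 to 2474 on day 4, against 2451 (6329 by the adjusted p alone). The 0 came from limma without CTCF-K20R EBs replicate 1 or 2, where 4500 and 4507 genes had an unadjusted p under 0.05, and a sample left alone in its group was assumed to vary like the other groups. Over 17 alternatives the lists kept 8 to 10 lower for other visceral endoderm, 5 to 6 for anterior visceral endoderm, 9 to 13 for parietal endoderm, and 3 to 4 higher for lipoprotein genes, while neighbours ranged from 0 to 5 higher and endocytic genes from 2 to 4. Levels of at most 5 reads a library limit what can be shown for Afp, Ttr and Apoa1, and for Cubn in mESCs.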

Other observations

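Rbp4, the retinol-binding protein that travels with transthyretin, was at 9.39 and 9.8 normalized counts in WT mESCs, 70.1 and 71.2 in CTCF-K20R mESCs, 87.1 and 86.4 in WT EBs, and 43.7 and 48.7 in CTCF-K20R EBs. Its log2 fold change was 2.76 on day 0 (adjusted p = 0.00539, limma) and -0.9 on day 4 (adjusted p = 0.0614), and the 2 effects differed by -3.66 (adjusted p = 0.00334). The genotype order of Rbp4 across the days was thus the opposite of that of Apoe. Lipc, hepatic lipase, was at 72.4 and 73.7 in WT mESCs, 31.2 and 26.4 in CTCF-K20R mESCs, and 0 in all 4 EB libraries. Both genes were chosen for mention after their values were seen.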
